A study of Rattus norvegicus with 8 samples.

Results

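The genes of cholesterol efflux and of the liver X receptor (LXR) pathway followed here in the rat kidney that remains after nephrectomy were Abca1, Abcg1, Apoe, Srebf1, Nr1h2, Nr1h3, Mylip, Lpcat3, Pltp and Scarb1. They were taken by symbol, which gave 13 probes of 10 genes among 41012 gene probes, and each of these probes is described. Male F344/NSlc rats aged 10 weeks had either a unilateral nephrectomy or a sham operation. Total RNA of the right kidney was hybridised to 1-colour Agilent arrays (4 sham and 4 nephrectomized samples, 1 array each). Each sample is called a rat here, though the labels only number the replicates. The source labels give day 1 for the sham samples and day 2 for the nephrectomized samples, while the text of the series gives 2 days for the study, so if the labels hold, day and operation cannot be told apart. Each rat's value is the log2 processed intensity minus the 75th percentile of its array, so 0 is the level of a probe at that percentile, and a value compares the same probe between rats but not one probe with another. Whole-kidney RNA was measured, so fewer cells of a type and less RNA per cell cannot be told apart.

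LXRα (Nr1h3) and LXRβ (Nr1h2) are nuclear receptors that are activated by oxysterols and bind DNA as heterodimers with retinoid X receptors. When sterols accumulate they switch on genes that export cholesterol (Abca1, Abcg1, Apoe), limit lipoprotein uptake (Mylip), remodel phospholipids (Lpcat3, Pltp) and promote fatty acid synthesis (Srebf1). When sterols are scarce the SREBP factors act instead and raise genes of cholesterol synthesis and uptake.

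The arrays fell on 2 slides, each with 2 sham and 2 nephrectomized rats and 1 scan. Between 54.8% and 65.5% of gene probes were well above background on an array, and none was saturated. All 13 nephron markers on the array were well above background in all 8 rats, from podocytes, proximal tubule, loop, distal tubule and collecting duct. Of these, 0 of 13 passed the test between groups. Their log2 differences, nephrectomized minus sham, had a median of 0.01 but ran from -0.11 to 1.08, so a missing call does not show an unchanged level. Principal component 1 (32.7% of the variance) split sham from nephrectomized rats. Component 2 (22.8%) set sham rat 1 and nephrectomized rat 3 apart from the others, at opposite ends. Limma was fitted to the 23985 probes that lay well above background in every rat of at least 1 group, with Benjamini-Hochberg adjustment over all of them and a threshold of 0.05. It called 777 probes (3.24%), 561 higher (2.34%) and 216 lower (0.901%) after nephrectomy. At an unadjusted p under 0.05 the share was 17%.

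Abca1 was the member that fell most, to 0.474 of its sham level, and Apoe fell to 0.790 of it. Srebf1 rose 1.23-fold and Scarb1 1.33-fold, each by 1 of its 2 probes. Both LXR genes, Abcg1, Mylip, Lpcat3 and Pltp did not pass the test. Of the 13 probes, 12 passed the filter on dim probes and 4 of these were called, 2 lower and 2 higher, against 3.24% of all probes tested. With each gene represented by its brightest probe, 3 of 10 members were called (Abca1 and Apoe lower, Srebf1 higher), 7 of 10 differences were negative and the median was -0.08. The median of all tested probes was -0.00 (-0.003874), with 5th and 95th percentiles of -0.33 and 0.38.

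The upstream sequences of Abca1 and Srebf1 are shown because the called probes of these genes moved in opposite directions here. Which Srebf1 isoform its probe reads was not stated, so the window printed may not be that of the transcript measured. Among RefSeq promoter windows of the GRCr8 assembly, 8 of the 10 members have one or more windows (11 windows in all), which hold 250 bases before the transcription start. Abcg1 and Scarb1 have none and were not searched, so what is said of the members' motifs below covers the other 8 only. Srebf1 has 2 windows, and the one printed is that with the longest run of letters shared with the Abca1 window, 13 bases, in capitals in both, and the capitals nearer the far end of the Abca1 window are an E-box (CACGTG).
Abca1, chr5:72596474-72596723, minus strand: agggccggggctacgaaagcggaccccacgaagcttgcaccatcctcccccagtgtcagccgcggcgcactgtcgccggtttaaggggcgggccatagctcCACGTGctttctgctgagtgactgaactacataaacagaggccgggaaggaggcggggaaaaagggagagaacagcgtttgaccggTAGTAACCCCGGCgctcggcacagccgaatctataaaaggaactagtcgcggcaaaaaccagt
Srebf1, chr10:45519011-45519260, minus strand: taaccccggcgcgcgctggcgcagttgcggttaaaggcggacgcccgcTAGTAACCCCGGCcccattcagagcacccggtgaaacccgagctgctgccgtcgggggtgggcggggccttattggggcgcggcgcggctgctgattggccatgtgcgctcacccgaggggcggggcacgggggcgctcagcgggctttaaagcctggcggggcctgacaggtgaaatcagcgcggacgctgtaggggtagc
The shared run, TAGTAACCCCGGC, lies 63 to 51 bases before the start of Abca1 and 202 to 190 bases before the start of Srebf1. It is in 2 of 33469 windows (0.00598%), these same windows, but it was found by comparing them, so its rarity tests nothing. LXR and its partner are known to bind a pair of repeats 4 bases apart. Written with the letters of the Abca1 window, as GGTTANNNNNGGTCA, and searched on both strands, such a pair was in 15 windows (0.0448%). As its letters are those of Abca1, a match there was fixed in advance, and neither the match nor its rarity tests anything. Other spellings, apart from the strict pair below, were not searched, so a member without this match may still hold a pair. Of the members only Abca1 held this spelling, as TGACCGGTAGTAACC, 70 to 56 bases before the start, where it overlaps the shared run. It reads on the strand opposite to the printed one. The 7 letters GGTTACT, which hold the first repeat of that pair and the next 2 bases of the Abca1 match, were in 634 windows (1.89%). Among them were those of Abca1 and 1 of the 2 Srebf1 windows, within the shared run, and 1 of the 3 Apoe windows, 168 to 162 bases before its start. The strict pair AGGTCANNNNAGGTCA was in 1 window (0.00299%), of no member. The E-box was in 1872 windows (5.59%), of the members in Abca1 only, 149 to 144 bases before the start. The sterol element TCACNCCAC, a site of SREBP factors, was in 326 windows (0.974%) and in no member's. These are matches of letters, and the arrays measured no binding.

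The receptors themselves showed no call. Nr1h3 (probe A_43_P12618) stood at 4.10, 3.90, 4.01 and 3.97 in the sham rats and at 3.94, 3.91, 3.93 and 4.01 in the nephrectomized rats. The groups overlapped, with all 8 rats in a narrow band, and the difference was -0.05 on the log2 scale (SE 0.06, 95% interval -0.19 to 0.10, adjusted p = 0.778, limma). Nr1h2 (A_44_P474165) stood at 3.65, 3.40, 3.36 and 3.61 in sham and at 3.61, 3.44, 3.37 and 3.40 in nephrectomized rats. Its groups overlapped as well, with a difference of -0.05 (SE 0.09, 95% interval -0.26 to 0.16, adjusted p = 0.842). An interval that reaches these bounds leaves room for a change of that size in either receptor's mRNA, and receptor activity was not measured.

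Of 15 listed partners and coregulators of LXR, 12 were tested, 1 was called, beside 3.24% of all probes, and the median difference was 0.01. The called gene was Rxrg, the gamma isoform of the retinoid X receptor. Rxrg (A_44_P269316) stood at -1.70, -1.90, -1.54 and -1.58 in the sham rats and at -1.03, -1.11, -0.57 and -0.58 in the nephrectomized rats. Every nephrectomized rat was above every sham rat, and those of slide 2 were the highest. The rise was 0.86 (SE 0.15, adjusted p = 0.0186, limma), 1.81-fold. It was no longer called without sham rat 2 (0.79, adjusted p = 0.0570) or nephrectomized rat 4 (0.78, 0.0584), and within slide 1 it was 0.73 (0.235) and within slide 2 0.99 (0.0373). A second Rxrg probe was too dim to test. The other partner or coregulator with the smallest p was Nr0b2, the orphan receptor SHP, at 0.29 (adjusted p = 0.0816), and Rxrb was at -0.20 (0.353).

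Abca1 passes cellular cholesterol and phospholipid to lipid-poor apolipoprotein A-I, the first step of HDL formation. Its probe (A_44_P323106) stood at -2.08, -1.98, -1.74 and -1.78 in the sham rats and at -2.95, -3.09, -3.17 and -2.68 in the nephrectomized rats. The groups did not overlap, and the highest nephrectomized rat (replicate 4) lay below the lowest sham rat (replicate 1). The mean went from -1.89 ± 0.16 (SD, n = 4) to -2.97 ± 0.22 (SD, n = 4), a fall of -1.08 (SE 0.12, 95% interval -1.36 to -0.80, adjusted p = 0.0028, limma). The sham level was thus 2.11 times the nephrectomized level, with a 95% interval of 1.74 to 2.57. Of all probes tested, 0.217% had a difference as low. Groups did not overlap at 12.2% of 23899 probes with a value in every rat, 4.92% with every nephrectomized rat lower.

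The fall of Abca1 was called in each fit that left out 1 rat, with differences from -1.18 to -1.01. Within slide 1 it was -0.99 (adjusted p = 0.112) and within slide 2 -1.17 (0.129), with 2 rats a group and neither called. Abca1 is a dim probe, with processed intensities of 133 to 205 in sham and 60.1 to 77.1 in nephrectomized rats, where the background correction matters. With normexp correction and an offset of 50, which draws dim values together, the fall was -0.61 and was still called (adjusted p = 0.00282).

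Abcg1, which moves cholesterol on to mature HDL particles, did not pass the test. Its probe (A_44_P237994) stood at 1.13, 1.07, 1.24 and 1.20 in sham rats and at 1.11, 1.08, 0.79 and 0.87 in nephrectomized rats. The first and second nephrectomized rats lay among the sham rats, and the other two, on slide 2, lay below all of them. The difference was -0.20 (SE 0.09, 95% interval -0.40 to 0.00, adjusted p = 0.302, limma), and it was -0.01 within slide 1 and -0.39 within slide 2.

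Apoe encodes apolipoprotein E, a lipid acceptor and a ligand of lipoprotein receptors. It stood at 6.88, 6.85, 7.01 and 6.97 in sham rats and at 6.68, 6.53, 6.63 and 6.52 in nephrectomized rats (A_44_P171440). The groups did not overlap, and the spread within each was small (6.93 ± 0.08 and 6.59 ± 0.08, SD, n = 4). The fall of -0.34 (SE 0.07, 95% interval -0.49 to -0.19) passed the test with an adjusted p of 0.0321 (limma). The call was near the threshold: it was lost without sham rat 2 (adjusted p = 0.0632), 3 (0.112) or 4 (0.0916), or nephrectomized rat 2 (0.0885) or 4 (0.113), with the difference between -0.37 and -0.31. It was -0.27 within slide 1 and -0.41 within slide 2.

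Macrophages are rich in both Apoe and Abca1, so macrophage markers are given beside them. Of 12 such markers 10 were well above background in all rats, and their summed level, in units of each array's 75th percentile, was 49.4 to 63.8 in sham and 52.1 to 66.3 in nephrectomized rats. Of the 10 tested, 5 differences were positive and 5 negative, with a median of -0.02 and a range of -0.59 to 0.27. Mrc1, the mannose receptor, was the 1 of 10 that was called, beside 3.24% of all probes. Its fall was -0.59 (SE 0.09, adjusted p = 0.0104, limma). The call was lost with no filter on dim probes (adjusted p = 0.0507), with the replicate number as a block (0.0716) and within either slide. Mrc1 stood at -1.81, -1.69, -1.59 and -1.82 in sham and at -2.14, -2.48, -2.37 and -2.30 in nephrectomized rats. Every nephrectomized rat was lower, as at 4.92% of probes. Cd163 was not well above background on any array. The part of Mrc1-bearing cells in the Abca1 and Apoe values was not tested.

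Pltp encodes the phospholipid transfer protein, which feeds HDL with phospholipid. It stood at 0.61, 0.48, 0.52 and 0.69 in sham and at 0.45, 0.53, 0.45 and 0.37 in nephrectomized rats (A_44_P436280). The groups overlapped through the second nephrectomized rat, and the difference of -0.12 (SE 0.07, 95% interval -0.28 to 0.03) did not pass (adjusted p = 0.420, limma).

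**Figure D1:**
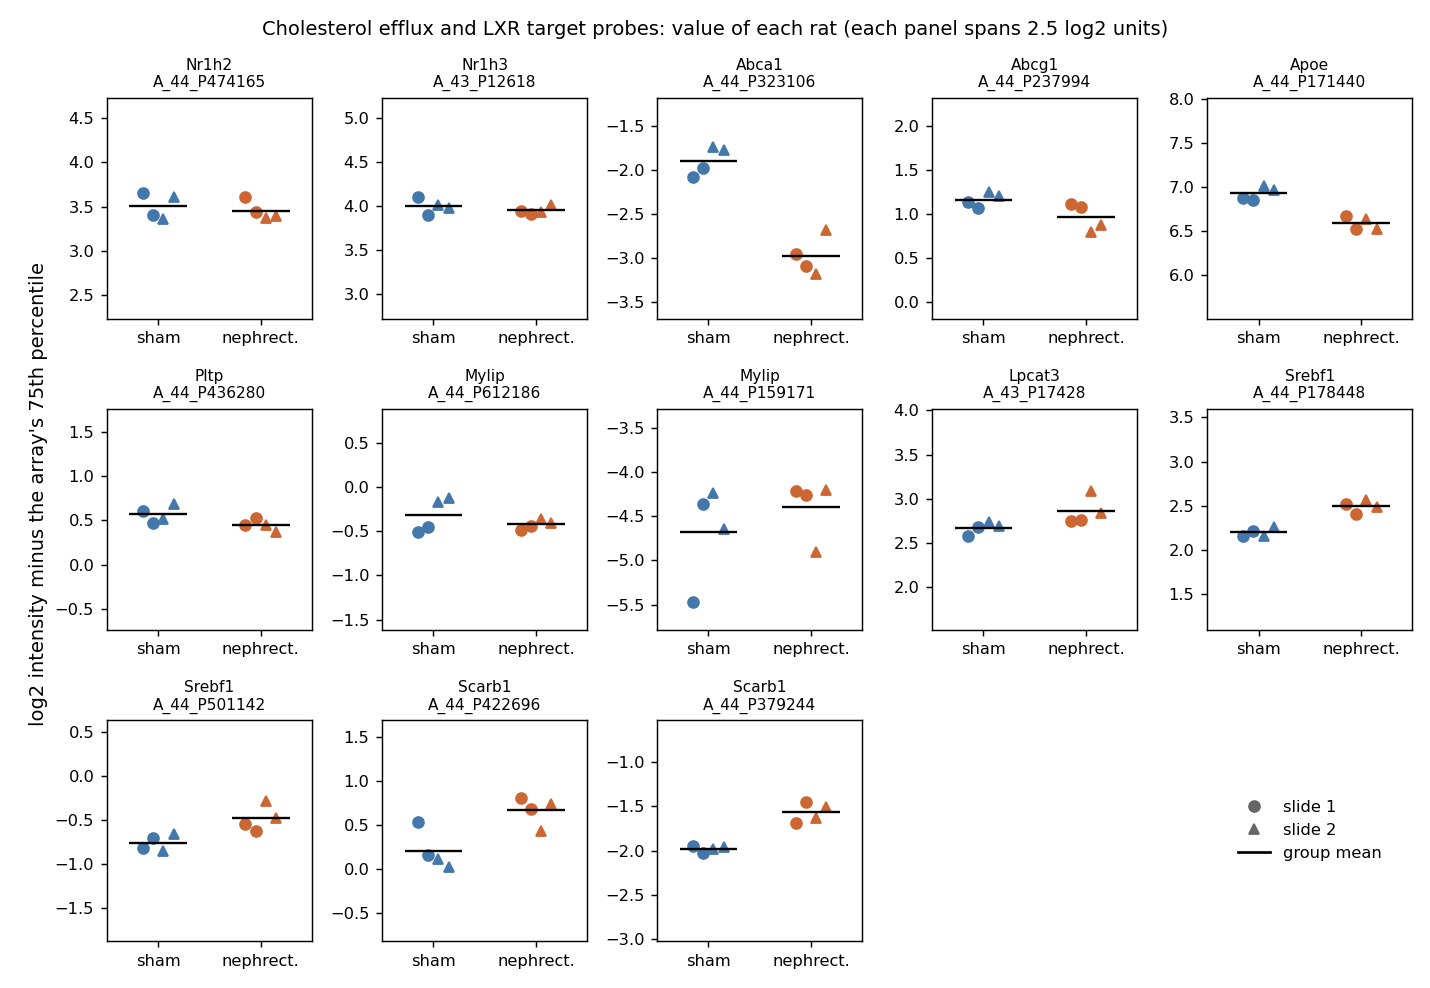
Value of each rat for the 13 member probes, as log2 processed intensity minus the array's 75th percentile, in sham and nephrectomized rats. Each panel spans the same number of log2 units, circles are slide 1 and triangles slide 2, and lines are group means. Abca1 goes from -1.89 to -2.97 with a wide gap between the groups, while the Nr1h2 and Nr1h3 panels overlap.

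Mylip, also called IDOL, encodes a ubiquitin ligase that limits lipoprotein uptake. Its brighter probe (A_44_P612186) stood at -0.51, -0.45, -0.17 and -0.12 in sham and at -0.49, -0.44, -0.36 and -0.40 in nephrectomized rats. The nephrectomized rats lay inside the sham range, with a difference of -0.11 (SE 0.10, 95% interval -0.33 to 0.11, adjusted p = 0.633, limma). The sham rats split by slide, with the lower pair on slide 1, and within that slide the difference was 0.017 against -0.24 within slide 2. The second probe (A_44_P159171) was well above background in 2 sham and 3 nephrectomized rats only and was not tested, at -5.47, -4.36, -4.24 and -4.64 against -4.22, -4.26, -4.90 and -4.20.

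Lpcat3 encodes the enzyme that puts polyunsaturated fatty acids into membrane phospholipids. It stood at 2.58, 2.68, 2.74 and 2.69 in sham and at 2.75, 2.76, 3.09 and 2.84 in nephrectomized rats (A_43_P17428). All nephrectomized rats were above all sham rats, as at 7.26% of probes, but by little, and the third rat was the highest. The difference of 0.19 (SE 0.09, 95% interval -0.01 to 0.39) did not pass the test (adjusted p = 0.320, limma). Among 12 tested enzymes of phospholipid acylation and polyunsaturated fatty acid synthesis 0 were called by their brightest probe, with a median of 0.13. Agpat2, an acyltransferase of phosphatidic acid synthesis, was at 0.39 (adjusted p = 0.0511), and Fads1, the delta-5 desaturase, at 0.62 (0.0706). A second, dimmer probe of Lpcat2 (A_42_P763720) was called at 0.57 (0.00842), while its brightest was at 0.24 (0.273).

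Srebf1 encodes SREBP-1, the activator of fatty acid synthesis genes, whose 1c isoform is an LXR target. Its brighter probe (A_44_P178448) stood at 2.16, 2.22, 2.16 and 2.25 in sham and at 2.52, 2.40, 2.56 and 2.48 in nephrectomized rats. The groups did not overlap, and the rise was 0.29 (SE 0.06, 95% interval 0.16 to 0.43, adjusted p = 0.0371, limma). It was 0.27 within slide 1 and 0.32 within slide 2. Leaving out any of the 8 rats raised the adjusted p above the threshold (0.0517 to 0.129), with the difference between 0.27 and 0.32.

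The other Srebf1 probe (A_44_P501142), printed as 10 spots on each array, stood at -0.82, -0.70, -0.86 and -0.65 in sham and at -0.54, -0.62, -0.28 and -0.47 in nephrectomized rats. Again every nephrectomized rat was above every sham rat. The difference of 0.28 (SE 0.09, 95% interval 0.08 to 0.48) was nearly that of the first probe but did not pass the test (adjusted p = 0.148, limma). The SD between its spots within an array was 0.033 to 0.10, against 0.10 and 0.15 between rats of a group. Which isoform either probe reads was not stated in the labels or headers.

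Fasn, fatty acid synthase and a target of both SREBP-1 and LXR, was the 1 called of 8 LXR targets tested outside the members, of 15 listed, beside 3.24% of all probes called. It stood at 2.03, 1.91, 2.04 and 1.89 in sham and at 2.42, 2.22, 2.56 and 2.44 in nephrectomized rats (A_44_P235985). The groups did not overlap, and the rise was 0.44 (SE 0.08, adjusted p = 0.0285, limma), 1.36-fold. The call was lost without sham rat 2 (adjusted p = 0.0890), 3 (0.0684) or 4 (0.0814), or nephrectomized rat 1 (0.0650), 3 (0.0508) or 4 (0.0977). The second Fasn probe was at 0.36 (adjusted p = 0.0882). Over the 8 tested targets 4 differences were positive and 4 negative, with a median of 0.00 (0.0019). Apoc2, which activates lipoprotein lipase, was at -0.23 (0.343) and Mlxipl, the carbohydrate response factor ChREBP, at -0.18 (0.394). Abcg5, Abcg8 and Scd were not well above background on any array.

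Scarb1 encodes SR-BI, the HDL receptor that takes up cholesteryl ester and also lets cholesterol leave the cell. One probe (A_44_P379244) stood at -1.94, -2.03, -1.99 and -1.96 in sham and at -1.69, -1.45, -1.63 and -1.51 in nephrectomized rats. The groups did not overlap, and the rise was 0.41 (SE 0.07, 95% interval 0.25 to 0.57, adjusted p = 0.0173, limma). It was 0.42 within slide 1 and 0.40 within slide 2, and 0.30 (adjusted p = 0.0461) with normexp correction. The call was lost without sham rat 2 (0.0617), 3 (0.0645) or 4 (0.0503) or nephrectomized rat 4 (0.0691).

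The brighter Scarb1 probe (A_44_P422696) stood at 0.53, 0.16, 0.11 and 0.02 in sham and at 0.81, 0.68, 0.43 and 0.73 in nephrectomized rats. The groups overlapped only through sham rat 1, which was above nephrectomized rat 3. These are the rats that principal component 2 set apart, at opposite ends. The difference was 0.46 (SE 0.13, 95% interval 0.17 to 0.74, adjusted p = 0.104, limma), and without sham rat 1 it was 0.56 and called (0.0280). Leaving out any other rat gave no call (adjusted p 0.0743 to 0.255, limma). Both probes thus gave a similar fold, 1.33 and 1.37.

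Steroid-making adrenal cortex is rich in Scarb1 and lies against the kidney, so its markers are given beside it. Of 7 adrenal markers on the array 0 were well above background in all rats, and Cyp11b1, Cyp11b2, Cyp21a1 and Mc2r were not in any rat. The summed level was 0.166 to 0.208 in sham and 0.217 to 0.267 in nephrectomized rats. The 1 tested, Cyp17a1, was well above background in every rat of only 1 group and entered the test through that group. It was called at 0.54 (adjusted p = 0.0233, limma), beside 2.34% of all probes called higher. As the filter used the same values, the call is given as a description only. It was lost with normexp correction (0.31, 0.0898). It was also lost without sham rat 4 (0.48, 0.0568) or nephrectomized rat 1 (0.52, 0.0592), 2 (0.56, 0.0570) or 4 (0.53, 0.0825). The part of adrenal tissue in the Scarb1 values was not tested.

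**Figure D2:**
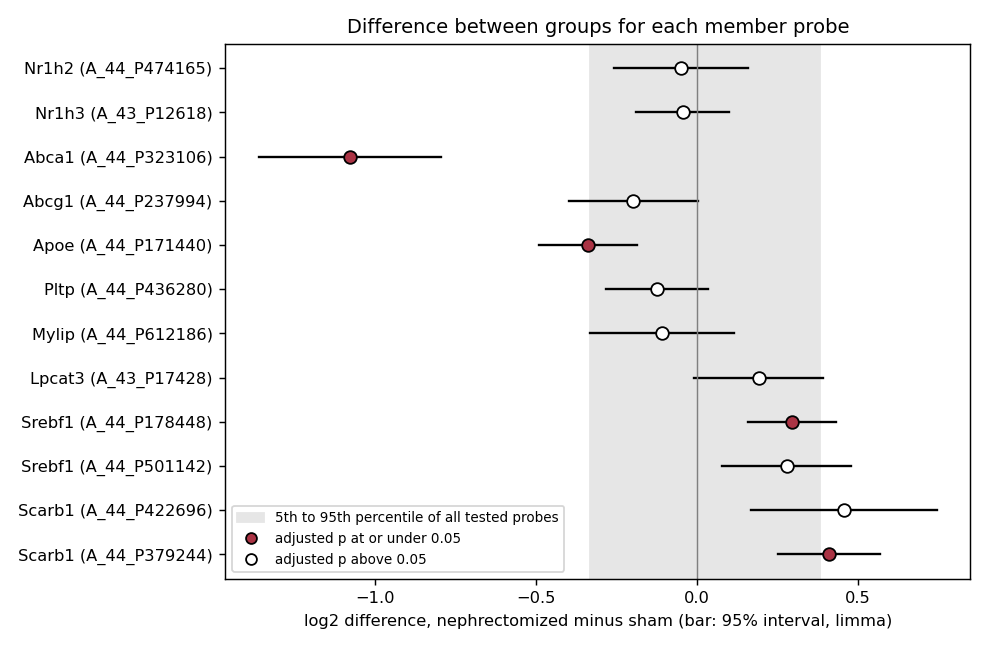
Log2 difference, nephrectomized minus sham, of each tested member probe with its 95% interval from limma. Filled points have an adjusted p at or under 0.05, and the grey band holds the 5th to 95th percentile of all tested probes, -0.33 to 0.38. Abca1 lies far left of the band at -1.08, and the called Scarb1 probe lies just right of it at 0.41.

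Whether Abca1 moved apart from the other members was tested within arrays, where the scaling of an array cancels. The value of Abca1 minus that of each other member was taken in every rat and compared between groups with an exact permutation test (two-sided, 70 assignments). In all 9 differences every nephrectomized rat was below every sham rat. The exact permutation p was 0.0286 for each, the smallest this design allows, and 0.0286 after adjustment over the 9. The shift was smallest against Apoe, the other member that fell, at -0.74, and against Abcg1 it was -0.88. It was -0.95 against Pltp, -0.97 against Mylip, -1.03 against either LXR gene and -1.27 against Lpcat3. It was largest against Srebf1, at -1.37, and Scarb1, at -1.53, each by its brighter probe. Because the fall of Abca1 was large, such a complete separation was found against 93.5% of all 23898 other probes, so the separation is not particular to these genes. Abca1 was also the member that fell most in these same rats, and its values enter all 9 differences. The 9 p-values are thus no separate support for its fall. With normexp correction the shift against Apoe was -0.24 with an adjusted p of 0.0857 by the exact permutation test.

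The 5 genes with a symbol listed here followed Abca1 most closely over the 8 arrays, out of 9925 compared by Pearson's r. Nepro had r = 0.970, Clec2g 0.969, Mt2A 0.965, Klf9 0.964 and Klf15 0.964. All 5 were lower after nephrectomy, as Abca1 was, and they were picked as the highest of 9925 over only 8 arrays. After the group means were removed r was 0.451 for Klf15 to 0.674 for Nepro. Klf15 differed by -0.87 (adjusted p = 0.00115), Mt2A, a metallothionein, by -0.54 (0.0107), Klf9 by -0.49 (0.00539) and Clec2g by -0.47 (0.00409), all called by limma. Nepro, at -0.18 (0.120), was not called. The genes were picked for their likeness over the same rats, and the r values describe them only.

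The list of SREBP processing and sterol sensing genes, as reported here, had 3 of 7 tested genes called, all higher, with a median of 0.28, beside 2.34% of all probes called higher. The list was drawn up with earlier results of these data known. Insig1, which holds SREBP in the endoplasmic reticulum, stood at 3.20, 3.55, 3.46 and 3.44 in sham and at 3.92, 3.98, 4.52 and 4.24 in nephrectomized rats (A_44_P406069). The groups did not overlap, with a rise of 0.75 (SE 0.14, adjusted p = 0.0271, limma), and its 4 probes were all called with rises of 0.74 to 0.78. Hmgcs1, an early enzyme of sterol synthesis, rose by 0.92 (0.0449), and Sqle, squalene epoxidase, by 0.87 (0.0372).

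Those 3 calls were lost in several fits that left out 1 rat: in 5 of the 8 such fits for Insig1 (adjusted p up to 0.0917), in 6 for Sqle (up to 0.0900) and in 7 for Hmgcs1 (up to 0.126). Each difference stayed positive in all 8, between 0.63 for Insig1 and 1.06 for Hmgcs1 at the ends. Srebf2, the factor that drives these genes, was at 0.28 and not called (adjusted p = 0.246).

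The remaining lists held 0 called genes by their brightest probe, beside 3.24% of all probes. Among 5 tested oxysterol and bile acid enzymes the median was -0.14. Ch25h, which makes the oxysterol 25-hydroxycholesterol, was at -0.37 (adjusted p = 0.346) and Sult2b1, a sterol sulfotransferase, at -0.31 (0.250). Among 8 HDL and apolipoprotein genes the median was 0.01, with Apoc3, an inhibitor of lipoprotein lipase, at 0.24 (0.150). Apoh, a plasma glycoprotein also called beta-2-glycoprotein I, had a difference of -1.16 (SE 0.37, 95% interval -2.01 to -0.31, adjusted p = 0.153, limma), larger in size than that of Abca1 but not called. It stood at -1.35, -0.25, -0.31 and -0.67 in sham and at -0.98, -2.25, -1.45 and -2.55 in nephrectomized rats, so the groups overlapped and the spread within each was wide. Apoa1, the main acceptor of Abca1, was well above background in 0 sham and 3 nephrectomized rats and was not tested.

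Among 14 lipoprotein receptors and scavengers the median was -0.03, with Scarb2, a lysosomal relative of Scarb1, at 0.24 (0.144) and Sorl1, a sorting receptor, at -0.22 (0.170). Among 14 genes of intracellular cholesterol transport and esterification it was 0.04. Stard4, a sterol carrier, was at 0.63 (0.132) and Nceh1, a cholesteryl ester hydrolase, at 0.32 (0.172). Among 6 other ABC transporters of subfamilies A and G the median was -0.05, with Abca2 at 0.16 (0.232) and Abca4, the retinoid transporter of the eye, at 0.19 (0.192). Abca1 was thus the one called gene among the tested transporters of these subfamilies, Abcg1 included.

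**Figure D3:**
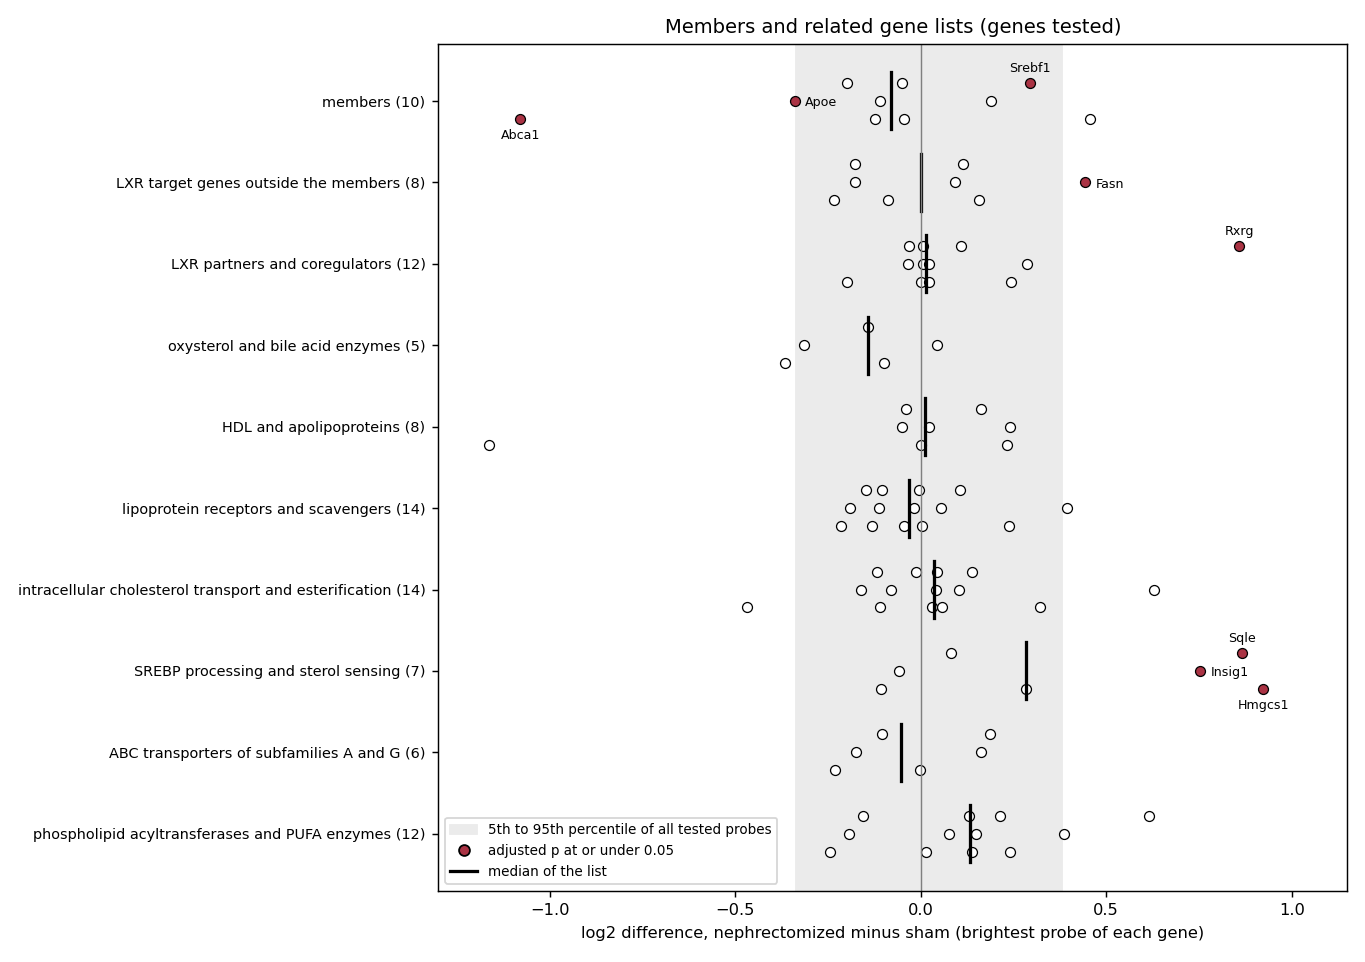
Log2 difference, nephrectomized minus sham, of the members and of each related list, with 1 point per tested gene (brightest probe). Black bars are list medians, filled points have an adjusted p at or under 0.05, and the grey band is the 5th to 95th percentile of all tested probes. Filled points sit to the right for the SREBP list, with a median of 0.28. Among the members Abca1 lies far to the left at -1.08, and Apoe, at -0.34, lies just left of the band.

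The calls of the 4 member probes differ in how they hold under other processing. Abca1 was called in all but the fits within 1 slide. Apoe, Srebf1 and the called Scarb1 probe kept their direction in each fit run and lost their call in several, among them those without the filter on dim probes.

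**Figure D4:**
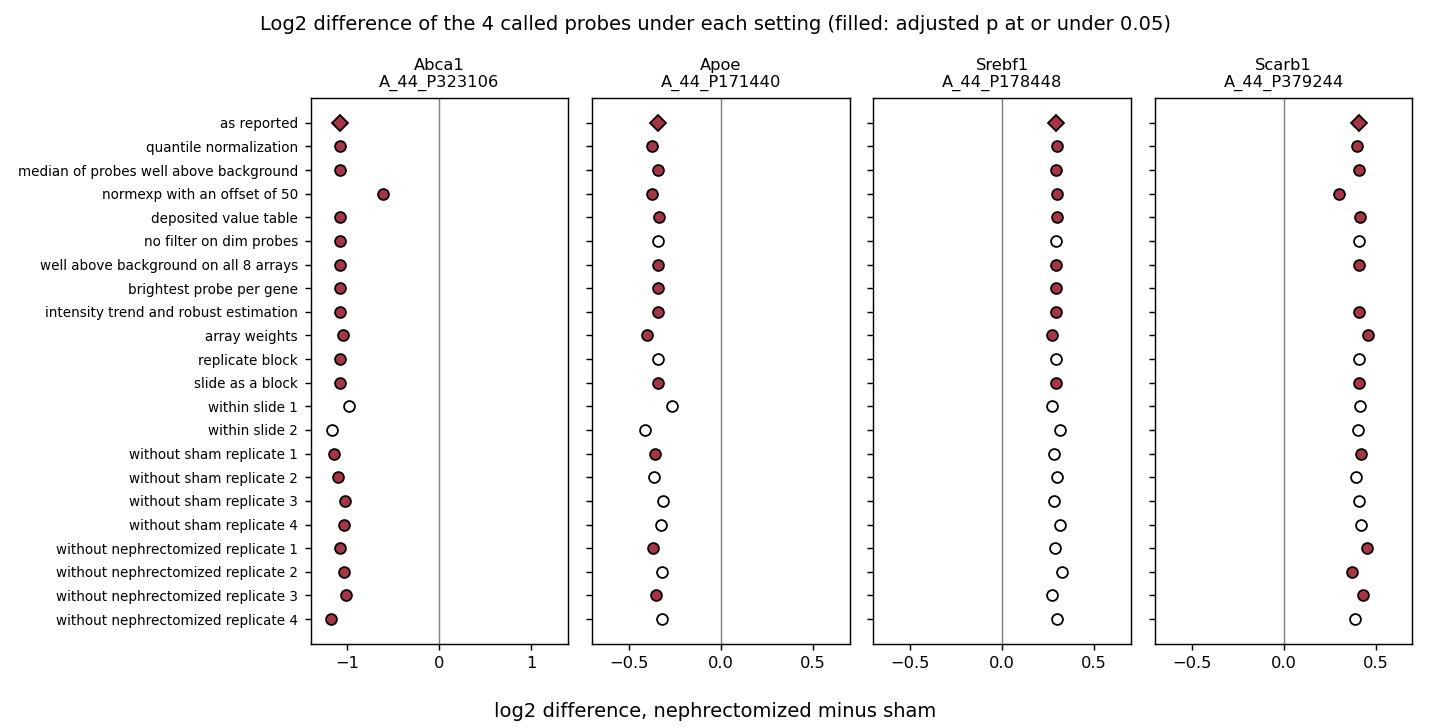
Log2 difference of the 4 called member probes under each setting, with filled points where the adjusted p was at or under 0.05 and diamonds for the reported values. Abca1 stays filled except within single slides and moves to -0.61 with normexp correction, and the open points of Apoe, Srebf1 and Scarb1 lie close to their reported differences.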

How the data were processed

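Each array was scanned by the authors and extracted with Agilent Feature Extraction 10.5.1.1, protocol GE1_105_Dec08, design 014879 on build rn4, per the file headers. The deposited processed intensity is background-subtracted, on a linear scale and not normalized between arrays. The authors' deposited log2 table (30448 probes; r = 0.9999 with the same computation here) served as an alternative. Control spots and outlier spots were removed, log2 intensities were averaged over the spots of a probe and the array's 75th percentile was subtracted. Symbols came from matching accessions to RefSeq (18713 probes, 14400 symbols). The comparison used limma 3.58.1 under R 4.3.3, two-sided and without covariates (lmFit and eBayes), adjusted by Benjamini-Hochberg. The labels do not say that samples are separate rats beyond naming 1 sample each, so p-values measure the spread between these samples.

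The members and lists were chosen with earlier results of these data known. Named genes are every member probe, each listed gene past the threshold, otherwise the 2 with the smallest p in a list, and the 5 nearest to Abca1. Apoa1, Srebf2, Lpcat2 and the genes not well above background were added for their role. A few listed genes are not reported here and were left out of the counts and medians of their lists after the values were seen. Rats with the same replicate number deviated together little (correlations 0.11, 0.018, 0.10 and -0.022), though 2 of the sham rats matched best with the nephrectomized rat of their number. Whether the numbers pair rats cannot be told from this, and the replicate number was used as a block in an alternative fit only. The script was tested on simulated data. The number of arrays limits the precision.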

Additional observations from a re-analysis of the deposited data

Results flagged for a closer look

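One value stood apart from its group by Dixon's test at the 95% level. The dim second Mylip probe (A_44_P159171) was at -4.90 in nephrectomized rat 3, against -4.26, -4.22 and -4.20 in the others of its group, a gap of 0.922 of the group's range. It was 1 of 36 groups of values examined, and chance alone would give about 1 in 20. The probe was not tested between the groups.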

How the results depend on the processing

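The number of called probes, 777 as reported, was 333 with no filter on dim probes, 2617 with array weights (55.75% of them higher, against 72.2% as reported), 327 with the replicate number as a block, 298 at a threshold of 0.01, 151 within slide 2 and 0 within slide 1, where limma gave 1897 at an unadjusted p under 0.05. Leaving out 1 rat gave 386 to 759 calls, with 437, 386 and 482 without sham rats 2, 3 and 4 and 391 without nephrectomized rat 4. The members called, 3 as reported, were 1 with no filter, with the replicate block and at 0.01, 0 within either slide and 1 to 3 without 1 rat (1 without sham rat 2, 3 or 4, and 1 without nephrectomized rat 2 or rat 4). Abca1 was not called within slides 1 and 2 (-0.99, -1.17). Apoe (-0.34), Srebf1 (0.29) and Scarb1 (0.41) were not called with no filter, with the replicate block (adjusted p 0.0927, 0.117 and 0.0812) or at 0.01, nor within slides 1 and 2 (-0.27 and -0.41; 0.27 and 0.32; 0.42 and 0.40). Without 1 rat they spanned -0.37 to -0.31, 0.27 to 0.32 and 0.37 to 0.45. The sign turned within slide 1 for Nr1h2 (0.0010) and Mylip (0.017). Called genes fell to 0 of the LXR targets, 0 of the partners and 0 of the SREBP list with no filter. They rose to 2 of the partners and 1 of the acyltransferases with the slide as a block, to 1 of the transport genes with normexp, and to 1 of the acyltransferases with quantile normalization. The shift of Abca1 against Apoe was -0.24 with normexp; without 1 rat it was -0.86 to -0.66, and against Abcg1 -1.01 to -0.80, with exact permutation p up to 0.0571 after adjustment for both. The within-slide fits hold 2 rats a group, and the fit with no filter adjusts over 41012 probes; other causes were not tested. The scalings moved the median over all probes by less than 0.1. The slide block changed no member's call. The fall of Abca1, a dim probe, was -0.61 with normexp.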
